A study of Mus musculus with 9 samples.

Results

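Gdf15 (ENSMUSG00000038508) was followed as a single gene, 1 of the 55401 genes in the table, across RNA sequencing libraries of K7M2 cells, an established mouse osteosarcoma line. The gene was chosen from its values in all 9 libraries, so its levels and fold changes are given as a description and carry no test. The cells were labelled wild type and were grown in DMEM with 10% FBS. There were 3 groups of 3 libraries: untreated cells, cells given platelet, and cells given (A/R) platelet, a name that the labels do not expand. Every library title gives 24 h. A separate treatment label runs from 24 to 26 h over the 3 platelet libraries and from 27 to 29 h over the 3 (A/R) platelet libraries, so the labelled hours and the (A/R) treatment cannot be told apart. The labels do not state whether the 3 libraries of a group come from different cultures, and any p below rests on library-to-library spread alone, possibly technical.

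GDF15 is a distant member of the TGF-beta superfamily of secreted growth factors. Cells release more of it under stress: ATF4 and CHOP, the transcription factors of the integrated stress response, and p53, the transcription factor of the DNA damage response, are both known to raise its transcription in mouse and human cells. The protein is made as a precursor, cut by furin-like proprotein convertases, and acts on neurons of the hindbrain through the receptor GFRAL with the co-receptor RET, where it lowers food intake.

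Gdf15 lies on the minus strand of mouse chromosome 8, at chr8:70629393-70632456 in GRCm38, and is annotated as protein coding. GENCODE M21 gives it 2 transcripts, Gdf15-201 with 2 exons and 1545 exonic bases, and Gdf15-202 with 3 exons and 1380 exonic bases. No other gene of the table overlaps it. Levels per length (FPKM, fragments scaled to transcript length and library size) and counts of Gdf15 corresponded to a length of 1851 to 1854 bases in every library, against 1852 bases for the merged exons of both transcripts. The values thus carry no information on the shares of the transcripts.

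The upstream sequence of Gdf15 is shown because stress factors are known to act on its transcription. The 250 bases before the start of Gdf15-202, chr8:70632457-70632706 on the minus strand (RefSeq, GRCm38.p6), read 5′ to 3′ in lower case, since none of the motifs searched lies in them.
Gdf15 upstream: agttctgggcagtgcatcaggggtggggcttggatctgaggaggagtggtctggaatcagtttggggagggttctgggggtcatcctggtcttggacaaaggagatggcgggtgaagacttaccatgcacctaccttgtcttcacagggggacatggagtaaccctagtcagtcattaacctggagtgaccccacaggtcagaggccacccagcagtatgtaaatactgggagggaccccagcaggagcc

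Motifs were searched on both strands in windows from 250 bases before to 50 bases after a transcript start, and the share of the 32851 mouse windows that hold each motif is given as background. They were the C/EBP-ATF response element core TGATGNAA, bound by ATF4 and CHOP with C/EBP partners (3.97% of windows), CRE TGACGTCA (1.79%), AP-1 site TGANTCA (7.81%), E-box CACGTG (7.15%), GC box GGGCGG (35.7%), EGR1 site GCGNGGGCG (5.55%), antioxidant response element core TGACNNNGC (12.4%), TATA box TATAAA (13.6%) and p53 decamer (8.36%). A GC box can overlap an EGR1 site. The window at the start of Gdf15-202 held none of these 9 motifs. The window at the start of Gdf15-201 held 1 E-box, at positions -83 to -78 with the start base as 0, inside the first exon of Gdf15-202. A match is a description of letters and not a bound site.

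Among 27 genes known as ATF4 and CHOP targets, 21 had a window in the RefSeq table, and 7 of these 21 genes held the C/EBP-ATF core (7 of 24 windows, 29.2%). Their sites are shown next to the Gdf15 E-box so that the letters can be compared. Each is 30 bases on the strand of the match, 5′ to 3′, GRCm38.p6, with the motif in capitals.
Gdf15 E-box (chr8:70632161-70632190, minus): cacagggcagggCACGTGtgagcatccagt
Chac1 (chr2:119351038-119351067, minus): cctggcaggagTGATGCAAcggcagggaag
Trib3 (chr2:152344028-152344057, plus): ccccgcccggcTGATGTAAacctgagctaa
Asns (chr6:7693214-7693243, minus): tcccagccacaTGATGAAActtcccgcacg
Pck2 (chr14:55540152-55540181, minus): ctgtaagatacTGATGTAActttgaaggct
Pycr1 (chr11:120643833-120643862, minus): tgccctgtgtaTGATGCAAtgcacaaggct
Slc7a11 first site (chr3:50443661-50443690, minus): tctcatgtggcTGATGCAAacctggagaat
Slc7a11 second site (chr3:50443642-50443671, plus): gggctgcatgaTGATGCAAattctccaggt
Vldlr (chr19:27216809-27216838, minus): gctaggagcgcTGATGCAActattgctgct

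The Gdf15 level was 4.10, 4.23 and 4.56 FPKM in untreated replicates 1 to 3, a mean of 4.29 ± 0.236 (SD, n = 3). It was 5.33, 5.16 and 4.60 FPKM in platelet replicates 1 to 3, a mean of 5.03 ± 0.386 (SD, n = 3). It was 20.8, 21.8 and 19.2 FPKM in (A/R) platelet replicates 1 to 3, a mean of 20.6 ± 1.33 (SD, n = 3). The (A/R) platelet libraries thus stood far above the other 6. The platelet and untreated groups did not overlap either, but only just, since the lowest platelet library and the highest untreated library lay at 4.60 and 4.56 FPKM. The share of all genes whose groups separate in this way was not counted, so this separation is a description only. The values are from bulk RNA, in which fewer cells of a type and less RNA per cell cannot be told apart.

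**Figure D1:**
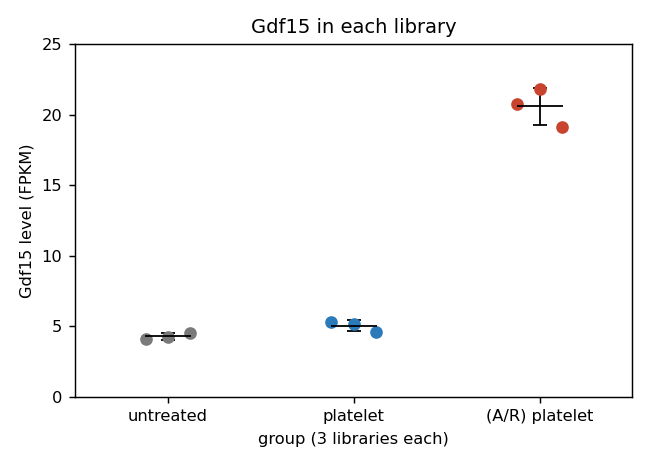
Gdf15 level in FPKM (y axis) in each of the 9 libraries, by group (x axis). Points are libraries, the long bar is the group mean and the error bar is 1 SD (n = 3). The (A/R) platelet libraries sit between 19.2 and 21.8 FPKM and the other 6 between 4.10 and 5.33 FPKM.

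In the edgeR fit over the 11826 genes with at least 1 FPKM in at least 3 libraries, Gdf15 was 4.96-fold higher in (A/R) platelet than in untreated cells, a log2 fold change of 2.31 ± 0.09 (SE, n = 3 against 3). It took position 23 among the rises of that comparison. Against platelet the difference was 4.19-fold, 2.07 ± 0.09 on the log2 scale (SE), at position 29 among the rises. Between platelet and untreated it was 1.18-fold, 0.24 ± 0.09 on the log2 scale (SE), at position 1076. The within-group SD of Gdf15 was 0.098 on the log2 CPM scale (CPM, counts scaled to the library total). The comparisons share libraries, so these values stand side by side and do not support each other.

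Gdf15 also moved up among the genes of its own library. By FPKM it lay above 34.5% to 37.0% of the tested genes in untreated libraries, above 37.8% to 42.5% in platelet libraries and above 77.0% to 79.8% in (A/R) platelet libraries. Its deposited counts were 351 to 476, 438 to 568 and 1940 to 2769 in the same order of groups. A fragment added about 4 counts in these files, which gives roughly 88 to 692 fragments of Gdf15 per library.

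Library totals ran from 37465049 to 61366030 counts. The edgeR test called 31 of 11826 genes between platelet and untreated cells (1524 at an unadjusted p under 0.05), 4587 between (A/R) platelet and untreated, and 4052 between (A/R) platelet and platelet. Of 10 osteoblast lineage markers, 5 passed the filter and 4 had 0 counts throughout the untreated group. Among those that passed were Col1a1, at 11.7 FPKM in untreated cells, and Runx2, at 3.45 FPKM. Alpl, the alkaline phosphatase of bone-forming cells, had 0 counts in all 9 libraries. The summed level of 10 osteoblast lineage markers was 2854 to 2890.5 CPM in untreated, 2610.3 to 2740.3 CPM in platelet and 2261 to 2361 CPM in (A/R) platelet libraries. With (A/R) platelet Col1a1 fell by 0.54, Col1a2 by 0.28 and Sparc by 0.38 on the log2 scale against untreated (edgeR adjusted p = 0.000835, 0.00185 and 0.000224). Runx2, at 0.20, and Spp1, at -0.13, were not called (edgeR adjusted p = 0.561 and 0.0780). In that comparison 19.5% of all tested genes fell. Of 20 platelet markers, 9, 9 and 11 had 0 counts throughout the untreated, platelet and (A/R) platelet groups, among them Tubb1, the tubulin of platelets. Their summed level was 4.75 to 6.92 CPM in untreated, 4.10 to 5.99 CPM in platelet and 2.49 to 3.41 CPM in (A/R) platelet libraries, lowest where Gdf15 was highest. Only Ppbp of these markers passed the filter. With (A/R) platelet it fell by 1.00 on the log2 scale against untreated (edgeR adjusted p = 0.00771). Against platelet it fell by 0.71 (edgeR adjusted p = 0.0391), a call lost in 10 of 18 alternatives. The sum of 7 red cell markers stayed between 0.913 and 2.36 CPM in all 9 libraries. Of 10 leukocyte markers 3 passed the filter, namely Cd68, Lyz2 and Csf1r. In (A/R) platelet against untreated Cd68 had a log2 fold change of 0.43 and was not called (edgeR adjusted p = 0.150). Lyz2 was not called either, at -1.28 ± 1.07 (SE; edgeR adjusted p = 0.391). Ptprc, which encodes the pan-leukocyte protein CD45, had at most 12 counts per library and Cd3e, of T cells, had 0. Csf1r, the receptor of a macrophage growth factor, made up most of that list's sum and was expressed at 437 ± 13.4 FPKM in untreated cells and 317 ± 11.5 FPKM with (A/R) platelet (SD, n = 3 each). Csf1r was called lower, by 0.41 on the log2 scale (edgeR adjusted p = 0.000133). The part of these cell markers in the Gdf15 values was not tested.

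Gdf15 was 1 of 33 TGF-beta superfamily ligands in the table, and its place among them changed with (A/R) platelet. In untreated cells it was the 4th by mean level, below Bmp4, a bone morphogenetic protein, at 18.2 ± 6.92 FPKM, Tgfb1 at 11.1 ± 1.34 FPKM and Bmp6 at 8.37 ± 0.513 FPKM (SD, n = 3 each). Its highest untreated library, at 4.56 FPKM, lay below the lowest library of Bmp6, at 7.80 FPKM, and above the highest of Tgfb3, at 2.55 FPKM. In platelet cells the order of these genes was the same. In (A/R) platelet cells Gdf15 was the 1st, and its lowest library, at 19.2 FPKM, lay above the highest library of Bmp4, at 11.6 FPKM. In untreated cells Bmp4 varied between 10.2 and 22.4 FPKM, so its order against Tgfb1 was within the spread.

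**Figure D2:**
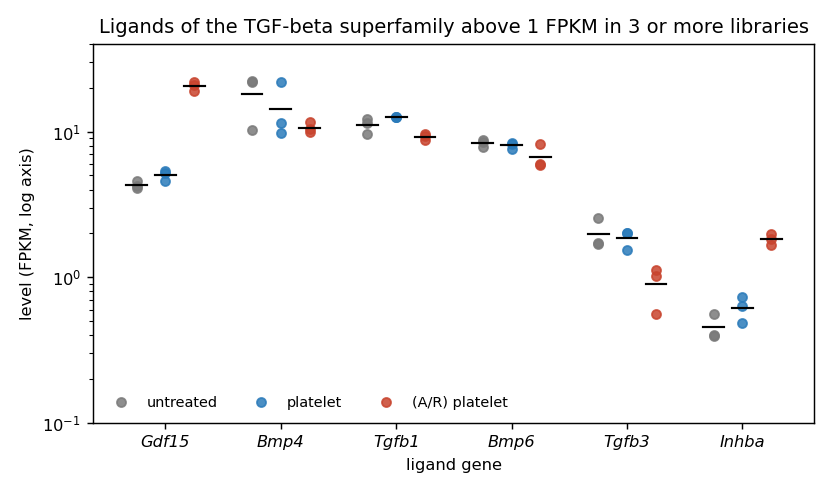
Levels in FPKM (y axis, log scale) of Gdf15 and of the 5 other TGF-beta superfamily ligands that passed the filter (x axis). Points are libraries coloured by group and bars are group means (n = 3 each). Gdf15 passes from 4th of the ligands in untreated and platelet cells to 1st with (A/R) platelet.

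Of the other 32 ligands, 5 passed the filter. In (A/R) platelet against untreated cells, where 38.8% of all tested genes were called, 1 of the 5 rose and 1 fell. Inhba, the activin A subunit, rose from 0.452 ± 0.0947 to 1.82 ± 0.170 FPKM (SD, n = 3 each; log2 fold change 2.05, edgeR Benjamini-Hochberg adjusted p = 6.75e-05). Inhba passed the filter only through the (A/R) platelet libraries, with at most 0.562 FPKM in untreated and 0.734 FPKM in platelet libraries. The filter thus favoured a rise of Inhba in both comparisons with (A/R) platelet, and its calls there carry little weight. Tgfb3 fell by 1.09 on the log2 scale (edgeR adjusted p = 0.0137). Tgfb1 (log2 fold change -0.22, edgeR adjusted p = 0.0679), Bmp4 (-0.72, 0.136) and Bmp6 (-0.27, 0.139) did not pass the test. Several of these calls depended on 1 library: without untreated replicate 1 the value of Tgfb3 was -0.86 and missed the threshold while Bmp4 fell by 1.00 and passed, and Bmp6 passed at -0.44 without (A/R) platelet replicate 2. Tgfb1 passed at -0.32 without untreated replicate 3, and also under upper quartile scaling, a filter of 5 FPKM, DESeq2 and limma with either pseudocount (adjusted p = 0.0471, 0.0433, 0.0484, 0.0379 and 0.0375). Against platelet, where 34.3% of tested genes were called, Inhba rose by 1.59 while Tgfb3 fell by 1.00 and Tgfb1 fell by 0.42 (edgeR adjusted p = 0.000332, 0.0218 and 0.00497). The Tgfb3 call was lost without platelet replicate 1 or 2, at -0.94 and -0.93. Between platelet and untreated cells, where 0.262% of tested genes were called, edgeR called none of the 5.

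The receptor of GDF15 was not detected in these cells. No library held a count of Gfral (0 in each of 9), a result under which as many as 3 fragments, or 0.196 to 0.320 CPM, could still be present per library. Its co-receptor Ret had 4 counts in (A/R) platelet replicate 2 and 0 in the other 8 libraries. Of the related co-receptors of the GDNF family, Gfra1 had at most 8 counts, Gfra3 had 0 and Gfra4 had at most 15. Gfra2, the co-receptor of neurturin, was the 1 of these 6 receptor genes that passed the filter, at 13.9 ± 1.19, 13.5 ± 0.939 and 16.8 ± 0.340 FPKM in untreated, platelet and (A/R) platelet cells (SD, n = 3 each). It rose with (A/R) platelet by 0.32 on the log2 scale against untreated (edgeR adjusted p = 0.0105).

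Ligands of the GDNF family, which signal through RET as GDF15 does, were low or changed by less than 1 on the log2 scale. Gdnf rose from 6.41 ± 0.182 to 8.04 ± 0.290 FPKM with (A/R) platelet (SD, n = 3 each; log2 fold change 0.38, edgeR adjusted p = 0.00403). Artn, which encodes artemin, had a log2 fold change of 0.38 against untreated (edgeR adjusted p = 0.0639) and rose by 0.50 against platelet (edgeR adjusted p = 0.0245). The Artn call against platelet was lost in 5 of the 9 fits without 1 library: without any single platelet library and without (A/R) platelet replicate 1 or 3, with values of 0.48 to 0.52. Against untreated it passed at 0.52 without untreated replicate 2, and at 0.37 with DESeq2 (adjusted p = 0.0409). Nrtn had 0 counts in every library and Pspn at most 16.

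Furin, the best known of the convertases that cut precursor proteins, was lower where Gdf15 was higher. It was expressed at 12.4 ± 0.591 FPKM in untreated, 12.6 ± 0.226 FPKM in platelet and 9.92 ± 0.609 FPKM in (A/R) platelet cells (SD, n = 3 each). It fell by 0.27 on the log2 scale against untreated and by 0.31 against platelet (edgeR adjusted p = 0.00503 and 0.00278). Of 8 convertase genes, 4 passed the filter, and Furin was the 1 called among them in either comparison with (A/R) platelet, beside 38.8% and 34.3% of all tested genes. Pcsk5 and Pcsk6 had at most 4 counts in any library.

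Transcription regulators that are known to act on Gdf15 transcription rose more often than they fell with (A/R) platelet. Of 18 such genes 15 passed the filter. Against untreated cells 8 rose, 3 fell and 4 were not called, with a median log2 fold change of 0.52 against 0.00 over all tested genes. Against platelet 9 rose and 2 fell, with a median of 0.40, and 7 in all were called without platelet replicate 1. Over all tested genes 19.3% rose and 19.5% fell in the former comparison, and 17.1% rose and 17.1% fell in the latter.

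Atf4 was the most highly expressed of the stress regulators plotted by library. Its level was 118, 116 and 109 FPKM in untreated libraries, 132, 127 and 125 FPKM in platelet libraries, and 220, 214 and 215 FPKM in (A/R) platelet libraries. The (A/R) platelet libraries lay well above the untreated and platelet libraries. The log2 fold change of Atf4 was 0.97 ± 0.05 for (A/R) platelet against untreated (SE; edgeR adjusted p = 1.35e-06), and 0.18 for platelet against untreated, which did not pass (edgeR adjusted p = 0.197).

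Ddit3, which encodes CHOP, was at 11.7, 13.5 and 13.9 FPKM in untreated, at 12.8, 13.9 and 12.9 FPKM in platelet, and at 36.9, 33.6 and 34.6 FPKM in (A/R) platelet libraries. The untreated and platelet libraries overlapped and the (A/R) platelet libraries lay above both. Ddit3 rose by 1.48 ± 0.08 on the log2 scale against untreated (SE; edgeR adjusted p = 3.05e-06). Cebpg, a dimer partner of ATF4, rose by 0.85 and Nupr1, a stress-induced chromatin factor, rose by 1.12 (edgeR adjusted p = 5.40e-06 and 0.0106).

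Other regulators changed in both directions. Cebpb rose by 0.52, Hif1a, the hypoxia factor, by 0.56, Klf4 by 0.58 and Klf5 by 0.76 (edgeR adjusted p = 0.00777, 0.000126, 3.67e-05 and 8.52e-05). Xbp1, the factor of the IRE1 branch of the unfolded protein response, fell by 0.82, Sp1 fell by 0.23 and Nfkb1, an NF-kappaB subunit, fell by 0.21 (edgeR adjusted p = 0.00286, 0.00675 and 0.00379). Atf3, a further stress factor, was below the filter at 0.133 ± 0.0544 FPKM in untreated, 0.102 ± 0.0105 FPKM in platelet and 1.13 ± 0.143 FPKM in (A/R) platelet cells (SD, n = 3 each). Egr1, an immediate early gene, stayed below the filter too, at 0 to 44 counts per library.

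Trp53, the p53 gene, was expressed at 70.3, 73.4 and 69.7 FPKM in untreated libraries, 73.0, 73.2 and 72.4 FPKM in platelet libraries, and 70.8, 70.7 and 66.2 FPKM in (A/R) platelet libraries. Its untreated and (A/R) platelet libraries overlapped. The (A/R) platelet libraries all lay below the platelet ones, a difference of -0.037 on the log2 scale that was not called (edgeR adjusted p = 0.540). The log2 fold change of (A/R) platelet against untreated was 0.012 ± 0.042 (SE; edgeR adjusted p = 0.855), with a sign that depended on the scaling.

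**Figure D3:**
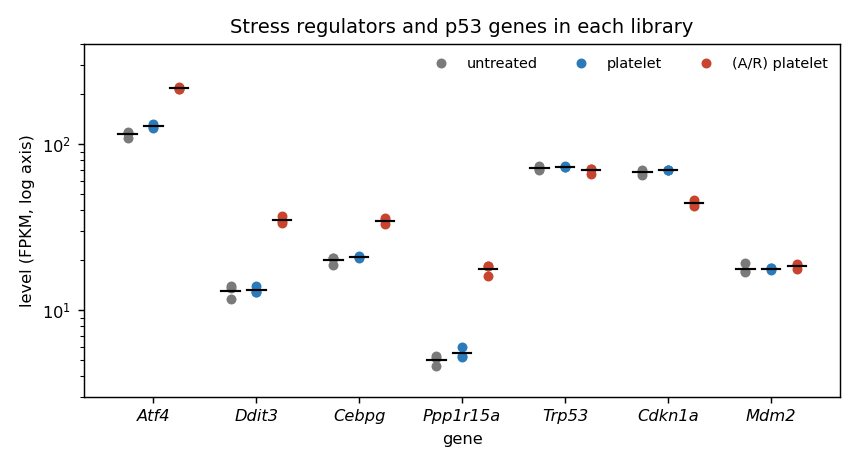
Levels in FPKM (y axis, log scale) of Atf4, Ddit3, Cebpg, Ppp1r15a, Trp53, Cdkn1a and Mdm2 (x axis) in each library. Points are libraries coloured by group and bars are group means (n = 3 each). Atf4, Ddit3, Cebpg and Ppp1r15a are higher with (A/R) platelet, Cdkn1a is lower, and the untreated and (A/R) platelet libraries of Trp53 and Mdm2 overlap.

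None of the kinases that start the integrated stress response by phosphorylating eIF2 alpha was called higher at the RNA level. Eif2ak1 (HRI), Eif2ak2 (PKR) and Eif2ak3 (PERK) fell by 0.22, 0.85 and 0.54 with (A/R) platelet against untreated (edgeR adjusted p = 0.0452, 7.49e-05 and 0.00358). The Eif2ak1 call was lost in 8 of the 9 fits without 1 library, all but the one without untreated replicate 3, with values between -0.30 and -0.15. Eif2ak4 (GCN2) and Ppp1r15b were not called. Ppp1r15a (GADD34), the stress-induced phosphatase subunit that reverses the phosphorylation, rose by 1.87 ± 0.09 (SE; edgeR adjusted p = 1.90e-06). The counts for these 6 genes were thus 1 higher, 3 lower and 2 not called, beside 19.3% of all tested genes that rose and 19.5% that fell.

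Known ATF4 and CHOP targets rose almost as a block with (A/R) platelet. Of 27 genes 26 passed the filter, and against untreated 25 rose and 1 fell, with a median log2 fold change of 0.93 against 0.00 over all tested genes, of which 19.3% rose. Against platelet 23 rose and 1 fell, with a median of 0.84, beside 17.1% of all tested genes that rose. The list was chosen with earlier results of these data known, so its counts are a description of these libraries. Chac1, Trib3 and Ppp1r15a of this list were also among the genes with the nearest profiles, described below. The one that fell in (A/R) platelet against untreated was Dnajb9, an ER chaperone cofactor driven mainly by XBP1, by 0.27 (edgeR adjusted p = 0.0346). That call held only when untreated replicate 1 or a platelet library was the one left out, with values of -0.33 to -0.21 over the 9 fits.

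Members of that list with the C/EBP-ATF core shown above rose by 0.64 to 2.28 on the log2 scale. The rise was not particular to them, since 25 of the 26 tested members rose. Ppp1r15a, whose window held no such core, rose by 1.87. The part of the core in these rises was not tested. Chac1, which degrades glutathione, rose by 2.28 ± 0.06 and Trib3, a pseudokinase that restrains ATF4 signalling, by 2.26 ± 0.05 on the log2 scale (SE; edgeR adjusted p = 1.02e-07 and 4.25e-08). Pycr1, of proline synthesis, rose by 1.56 and Slc7a11, the cystine importer, by 1.41 (edgeR adjusted p = 0.00102 and 1.11e-06). Pck2, a mitochondrial enzyme of gluconeogenesis, rose by 1.24, Vldlr, a lipoprotein receptor, by 0.69 and Asns, asparagine synthetase, by 0.64 (edgeR adjusted p = 3.03e-05, 3.23e-05 and 0.000732). Cth, of the transsulfuration pathway, rose by 2.43, the largest value in the list (edgeR adjusted p = 1.63e-06). The 2.31 of Gdf15 lay between those of Chac1 and Cth.

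Targets of p53 were called in both directions. Of 22 genes 20 passed the filter, and against untreated 5 rose, 6 fell and 9 were not called, with a median log2 fold change of -0.016 beside 0.00 over all tested genes, of which 19.3% rose and 19.5% fell. Against platelet 4 rose and 5 fell, beside 17.1% of all tested genes in each direction. These numbers of calls lie near those shares. Of the 5 that rose against untreated, Sesn2 (0.41) and Tnfrsf10b (0.29) were also counted among the ATF4 and CHOP targets. Cdkn1a, the cell cycle inhibitor p21 and the best known p53 target, was at 67.3, 70.0 and 65.4 FPKM in untreated, 70.1, 69.7 and 70.0 FPKM in platelet, and 46.2, 42.1 and 44.3 FPKM in (A/R) platelet libraries. The (A/R) platelet libraries all lay below the other 6, opposite to Gdf15, and Cdkn1a fell by 0.56 ± 0.04 against untreated (SE; edgeR adjusted p = 1.85e-05).

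Mdm2, the p53 ubiquitin ligase, had a log2 fold change of 0.10 against untreated (edgeR adjusted p = 0.159), or 0.16 and past the threshold without untreated replicate 3. Of the p53 targets that rose, Gadd45a, a stress sensor, was at 4.61 ± 0.758 FPKM in untreated and 35.8 ± 3.88 FPKM in (A/R) platelet cells (SD, n = 3 each), a log2 fold change of 3.00 (edgeR adjusted p = 1.63e-06). Plk2, a stress-responsive kinase, rose by 0.94 and Bbc3 (PUMA), a cell death activator, by 0.63 (edgeR adjusted p = 6.50e-07 and 0.00455). Fas, a death receptor, fell by 1.01 (edgeR adjusted p = 0.0275), a call that did not hold when untreated replicate 2, untreated replicate 3, (A/R) platelet replicate 1 or (A/R) platelet replicate 2 was left out, with values of -0.99 to -0.77.

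Other secreted factors that stressed cells release were mostly higher with (A/R) platelet. Of 14 genes 9 passed the filter, and against untreated 6 rose, 1 fell and 2 were not called, beside 19.3% of all tested genes that rose and 19.5% that fell. Angptl6, an angiopoietin-like factor, went from 2.08 ± 0.415 to 18.8 ± 1.31 FPKM (SD, n = 3 each; log2 fold change 3.23, edgeR adjusted p = 5.82e-06), against the 20.6 FPKM of Gdf15 in the latter cells. Vegfa, an angiogenic factor, rose by 1.21, Adm2 by 1.29, Stc2, a stanniocalcin, by 1.68, Lif by 0.69 and Cxcl1, a neutrophil chemokine, by 0.81 (edgeR adjusted p = 2.69e-05, 2.71e-05, 0.00131, 0.00149 and 0.000868). Angptl4, an inhibitor of lipoprotein lipase, fell by 1.79 (edgeR adjusted p = 3.06e-05).

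FGF21 is another well known stress hormone, and its gene was close to the limit of detection. Fgf21 had 0 counts in all 6 untreated and platelet libraries, and 8, 19 and 8 counts in (A/R) platelet replicates 1 to 3, near the 12 counts that 0 fragments allow. Inhbe had at most 8 counts and Il6 at most 4. Against platelet 7 of the 9 tested factors rose and 2 fell, beside 17.1% of all tested genes in each direction. One of the falls, that of Metrnl by 0.62 (edgeR adjusted p = 0.0478), held in only 1 of the 9 fits without 1 library, the one without untreated replicate 2, with values of -0.72 to -0.54 over the 9.

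**Figure D4:**
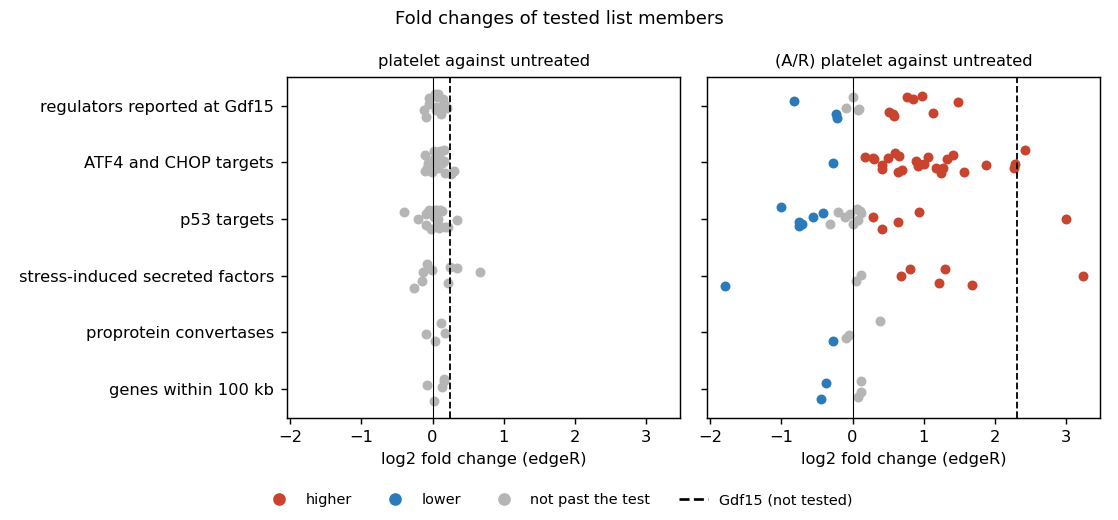
Log2 fold changes (x axis) of tested members of 6 gene lists (rows) for platelet against untreated (left) and (A/R) platelet against untreated (right). Each point is a gene, coloured by its call in edgeR, and the dashed line is the untested value of Gdf15 (0.24 left, 2.31 right). No list member passed the test on the left; on the right 25 of 26 ATF4 and CHOP targets rose while p53 targets lay on both sides of 0.

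None of these genes passed the edgeR test in platelet against untreated. In the lists of receptors, ligands, convertases, regulators, eIF2 alpha kinases and phosphatase subunits, ATF4 and CHOP targets, p53 targets, secreted factors and neighbours, 90 different genes passed the filter. In that comparison edgeR called 0 of them, 14 had an unadjusted p under 0.05, and DESeq2 called 3, namely Chac1, Trp53inp1 and Plk2. Over all 11826 tested genes edgeR called 31 (0.262%), 1524 had an unadjusted p under 0.05, and DESeq2 called 225. The largest difference among the stress-induced secreted factors there was that of Metrnl, at 0.67 (edgeR adjusted p = 0.270). Chac1 was at 31.3, 30.6 and 29.1 FPKM in untreated and at 38.3, 38.1 and 34.4 FPKM in platelet libraries. The log2 fold change was 0.30 (edgeR adjusted p = 0.0784). Chac1 also had the profile nearest to that of Gdf15 in these libraries, so its value is no separate support for the 0.24 of Gdf15. Over the 8 genes with the nearest profiles, described below, the median in this comparison was 0.073, a description of genes chosen by these values. Of the same 90 genes edgeR called 63 in (A/R) platelet against untreated and 64 in (A/R) platelet against platelet, beside 38.8% and 34.3% of all tested genes.

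No tested gene next to Gdf15 on chromosome 8 was called higher with (A/R) platelet. The lower coordinate of 12 other genes lies within 100 kb of that of Gdf15, and 5 of them passed the filter. In (A/R) platelet against untreated 0 of these 5 rose, 2 fell and 3 were not called. Over all tested genes 19.3% rose and 19.5% fell, so these few calls are not particular to the neighbours. Pgpep1, a peptidase gene 14 kb away, was at 2.07 ± 0.171 FPKM in untreated and 1.46 ± 0.211 FPKM in (A/R) platelet cells (SD, n = 3 each) and fell by 0.45 (edgeR adjusted p = 0.0396). That call was lost without untreated replicate 1 or 2, platelet replicate 2, or (A/R) platelet replicate 1 or 2, with values of -0.44 to -0.35. Ell, a transcription elongation factor gene 36.5 kb away, fell by 0.37 (edgeR adjusted p = 0.00959). Ssbp4, Lsm4 and Jund were not called, though Lsm4 passed at 0.21 without untreated replicate 2. The nearest gene, Lrrc25, 7.91 kb away, had at most 4 counts per library.

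The 8 named genes whose profile was most like that of Gdf15 were picked by the root mean square difference of log2 CPM, each gene centred on its own mean, over the 9 libraries. They were Chac1 (0.0808), Trib3 (0.148), Gtpbp2 (0.149), Timp3 (0.192), Als2cl (0.194), Brd3os (0.207), Ppp1r15a (0.210) and Dennd4a (0.219), against a median difference of 1.05 over 9704 other named genes. They were chosen by these values, so no test is given for them as a set. Chac1, Trib3 and Ppp1r15a have p-values above as members of other lists. Those p-values are no separate support for the values of Gdf15. Brd3os lies opposite Brd3, and since the use of strand is not given, reads of the 2 cannot be told apart where they overlap.

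Chac1 had the smallest difference. Centred on its own mean, Gdf15 lay at -0.91, -0.87 and -0.76 in untreated and at -0.52, -0.57 and -0.74 in platelet replicates 1 to 3. Chac1 lay at -0.81, -0.85 and -0.92 and then at -0.50, -0.52 and -0.67 in the same libraries. Both genes were thus slightly above their untreated values in platelet replicates 1 and 2 and nearer to them in replicate 3. With (A/R) platelet Gdf15 lay at 1.47, 1.55 and 1.35 and Chac1 at 1.44, 1.44 and 1.39. Gtpbp2, a GTP-binding protein linked to rescue of stalled ribosomes, went from 3.01 ± 0.293 to 14.6 ± 0.220 FPKM and Timp3, an inhibitor of matrix metalloproteinases, from 1.49 ± 0.0804 to 5.34 ± 0.285 FPKM between untreated and (A/R) platelet cells (SD, n = 3 each). On the log2(FPKM + 1) scale 5 of the 8 were again among the nearest 8: Chac1, Trib3, Gtpbp2, Brd3os and Ppp1r15a.

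**Figure D5:**
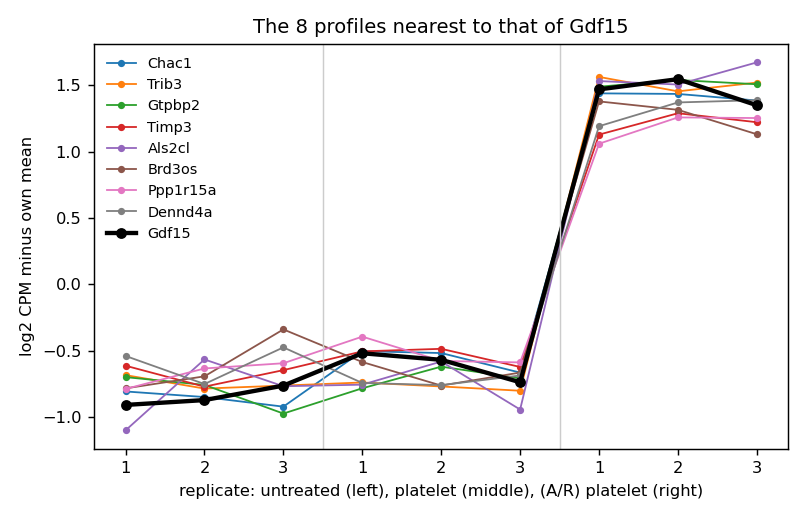
Profiles of Gdf15 (thick black) and of the 8 named genes nearest to it, as log2 CPM minus the gene's own mean (y axis) in each of the 9 libraries (x axis, by group and replicate). Gdf15 lies between -0.91 and -0.52 in the untreated and platelet libraries and between 1.35 and 1.55 in the (A/R) platelet libraries.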

How the data were processed

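The authors deposited 1 table with a whole-number count and an FPKM value per gene and library, and 0.0001 FPKM in place of 0. Per the submitters' processing notes, the genome was GRCm38, also called mm10. Per the labels' protocols, an mRNA kit was used on total RNA. Aligner, counter and strand setting: not given in the sources used here. The member and the gene lists were chosen with earlier results of these data known. One listed gene is not reported here.

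Genes with at least 1 FPKM in at least 3 of 9 libraries were tested with edgeR 4.0.16 (R 4.3.3; TMM, 1 mean per group, quasi-likelihood test, Benjamini-Hochberg adjusted p under 0.05). SE is the log2 fold change over the square root of F. The fit was tested on simulated data. Counts piled up at 4 (898 to 1116 genes per library, against 286 to 342 at 3), hence about 4 counts per fragment; limits cover counting error only. No libraries of the same group were repeat deposits of each other (chi-square per gene 9.60 to 17.0). Pairs across groups were not compared. Ddit3 has 2 IDs; the one with more counts was used.

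Named genes were a fixed set (Atf4, Ddit3, Atf3, Trp53, Egr1, Gfral, Ret, Furin, Pcsk5, Pcsk6, Fgf21, Inhbe, Trib3, Chac1, Cdkn1a, Mdm2), from each list the called genes with the 3 lowest p (or 1 gene if none was called), neighbours within 100 kb and the 8 nearest profiles. Other genes were named after their values were seen. Alternatives were other scalings and filters, DESeq2 1.42.0, limma 3.58.1 on log2(FPKM + 1) and log2(FPKM + 0.1), the 6 libraries of a comparison alone, a replicate block, each library left out and, chosen after seeing the data, counts divided by 4.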

Additional observations from a re-analysis of the deposited data

How the results depend on the processing

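The log2 fold change of Gdf15 kept its sign in all 3 comparisons under all 19 alternatives, 18 planned and 1 chosen after seeing the data. It ranged from 0.19 to 0.31 for platelet against untreated. For (A/R) platelet against untreated it moved by more than the within-group SD only on log2(FPKM + 1) with limma, to 2.03, and for (A/R) platelet against platelet to 1.84, a scale that understates changes of low genes. Without 1 library these values were 2.27 to 2.37 and 2.01 to 2.13. The 31 genes called between platelet and untreated became 225 with DESeq2 (all 31 shared), 18 with the 6 libraries alone (16 shared) and 18 to 26 without 1 library. The lowest of these came without platelet replicate 3 (14 shared). The replicate block called 0 there in edgeR (1337 at an unadjusted p under 0.05). Same-numbered libraries had deviations that correlated at -0.030 to 0.052 over all tested genes. No pairing by number was thus seen, though a shared effect on few genes could be missed. The counts with (A/R) platelet stayed within 1.5 times, at 3470 to 4862 against untreated and 3084 to 4386 against platelet. The log2 fold change of Trp53 for (A/R) platelet against untreated was 0.012 and turned to -0.011 with upper quartile scaling, -0.0054 with a filter of 5 FPKM and -0.039 with limma on either pseudocount, and was -0.0051 to 0.049 without 1 library. It passed no threshold in any of these. Depth limits Gfral, Ret, Fgf21 and other genes near 12 counts per library.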
